A study of Mus musculus with 3 samples.

Results

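Chemokine ligands are small secreted proteins that draw leukocytes along gradients, and the genes examined here are those whose symbol is Ccl, Cxcl, Cx3cl or Xcl followed by a number and, where present, a letter. Of the 45101 probe sets on the array, 51 carried exactly 1 such symbol. They stand for 33 of the 18193 genes with a single symbol, comprising 18 CC, 13 CXC, 1 CX3C and 1 C chemokine. A further 4 probe sets list a chemokine among several symbols (the Ccl27a, Ccl21 and Ccl19 copies) and were left out of the members.

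All samples were NIH3T3, a line of immortalised fibroblasts from mouse embryos. On 2 arrays the cells carried the empty vector, were grown in DMEM with 10% calf serum and had no treatment (empty vector 1 and empty vector 2). On 1 array (RetSat shRNA) they carried a hairpin RNA that silences Retsat, the gene of retinol saturase, and were highly resistant to t-BHP (tert-butyl hydroperoxide, an oxidant) by their label, which gives neither medium nor treatment. The labels do not say whether any array came from its own culture, and the comparison asks which transcripts beyond the target set the resistant cells apart. Triplets of values below stand in the order empty vector 1, empty vector 2, RetSat shRNA.

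The family is named for the spacing of its first cysteines: adjacent in the CC group, parted by a residue in the CXC group, and by several in CX3C. CC ligands mostly act on monocytes, T cells and eosinophils, and CXC ligands with a Glu-Leu-Arg motif act on neutrophils through CXCR2. Fibroblasts are known to secrete several inducible members, whose promoters are classical targets of the transcription factor NF-kB, and to make Cxcl12 without stimulation.

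The promoters of Cxcl1, Cxcl2, Cxcl3 and Cxcl10 are printed because they show the same kind of sequence before genes of bright, dim and near-floor signal. Each is the 250 bases before the RefSeq start in assembly GRCm38.p6, 5′ to 3′ on the gene's own strand, and capitals mark every match to the NF-kB consensus on either strand.
Cxcl1: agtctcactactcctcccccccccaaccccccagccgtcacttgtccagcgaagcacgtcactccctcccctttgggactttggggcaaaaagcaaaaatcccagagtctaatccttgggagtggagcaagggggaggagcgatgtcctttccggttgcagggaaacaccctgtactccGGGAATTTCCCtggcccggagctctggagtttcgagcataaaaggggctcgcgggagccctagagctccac
Cxcl2: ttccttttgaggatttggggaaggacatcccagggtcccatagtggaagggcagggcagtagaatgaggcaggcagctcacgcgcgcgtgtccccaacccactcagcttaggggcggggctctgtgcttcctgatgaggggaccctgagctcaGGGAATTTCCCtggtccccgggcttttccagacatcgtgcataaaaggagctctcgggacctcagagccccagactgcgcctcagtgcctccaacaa
Cxcl3: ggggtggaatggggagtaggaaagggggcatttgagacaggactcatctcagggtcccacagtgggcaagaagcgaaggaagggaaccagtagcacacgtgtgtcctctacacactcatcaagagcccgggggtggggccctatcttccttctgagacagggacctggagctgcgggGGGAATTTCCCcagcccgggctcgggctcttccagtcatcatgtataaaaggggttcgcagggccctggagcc
Cxcl10: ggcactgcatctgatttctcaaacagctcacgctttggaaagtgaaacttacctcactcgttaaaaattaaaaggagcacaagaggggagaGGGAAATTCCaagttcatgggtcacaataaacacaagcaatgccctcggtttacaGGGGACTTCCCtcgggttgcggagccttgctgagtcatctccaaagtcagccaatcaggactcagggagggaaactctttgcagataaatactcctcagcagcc
They lie at chr5:90890995-90891244, chr5:90903649-90903898 and chr5:90785851-90786100 on the plus strand and at chr5:92348890-92349139 on the minus strand.

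The promoters of Cxcl1, Cxcl2 and Cxcl3 hold the same 11-base sequence, GGGAATTTCCC, made of 2 overlapping matches, which begins 71, 97 and 73 bases before the start. It was singled out after these promoters were read, and it occurs, on either strand, in 14 of all 32851 promoter windows of that length (0.0426%). The Cxcl10 promoter holds matches that begin 159, 104 and 103 bases before the start, the last pair overlapping, and 213 bases before the start a match to GAAANNGAAA, the core of the interferon-stimulated response element. Promoter sequences were matched for 23 of the 33 members. Of the expressed members, Ccl2, Cxcl5, Ccl7, Cxcl16 and Ccl4 had no sequence to search. The NF-kB consensus occurred in 7 of the 23, in 3 of 11 expressed members and 4 of 12 near-floor members, compared with 7.25% of all windows. The interferon core occurred in 1 expressed and 1 near-floor member, compared with 2.98% of all windows. A match is a description of letters, and among the members with a sequence the consensus occurred before expressed and near-floor genes alike.

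Retsat read 415.9 on empty vector 1, 495.9 on empty vector 2 and 69.5 on RetSat shRNA, so 15.2% of the mean empty-vector signal was left. Even for this gene the adjusted p of the limma fit was 0.9999 (unadjusted p = 0.000432). The arrays were unequally alike, and empty vector 1 stood apart. Across the 10843 genes tested, the SD of the log2 difference was 0.739 between the empty-vector arrays, 0.754 between RetSat shRNA and empty vector 1 and 0.336 between RetSat shRNA and empty vector 2. Over the expressed chemokine ligand genes it was 0.596, 0.560 and 0.386. Every comparison below is therefore given against each empty-vector array. All log2 values are of signal plus an offset of 10.2, which understates the change of dim genes. All 11 fibroblast markers reached the median signal of all probe sets, the level set for testing, with summed signals of 85792.1, 78875.9 and 81553.5. In bulk RNA, fewer cells of a type and less RNA per cell cannot be told apart.

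Of the 33 chemokine ligand genes, 16 were expressed and 17 were near the floor. A gene was called expressed when the mean log2 signal of its brightest probe set over the 3 arrays reached the median of all probe sets, which lay at 39.4, 37.9 and 35.7 signal units. That share, 48.5%, compares with 59.6% of all genes with a single symbol. The expressed members comprised 8 CC, 7 CXC and the CX3C gene. A bright set of 6 read between 393.2 and 10200.6, and the other 10 read between 24.7 and 214. Signals of different probe sets do not rank transcripts by abundance, so these sets describe height above the floor. Just inside the limit were Ccl4 (38.3, 59.5 and 53.9) and Cxcl15 (67.7, 24.7 and 43.7), and just outside were Cxcl17 (57.0, 10.5 and 33.8) and Ccl5 (17.5, 15.8 and 49.2).

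**Figure D1:**
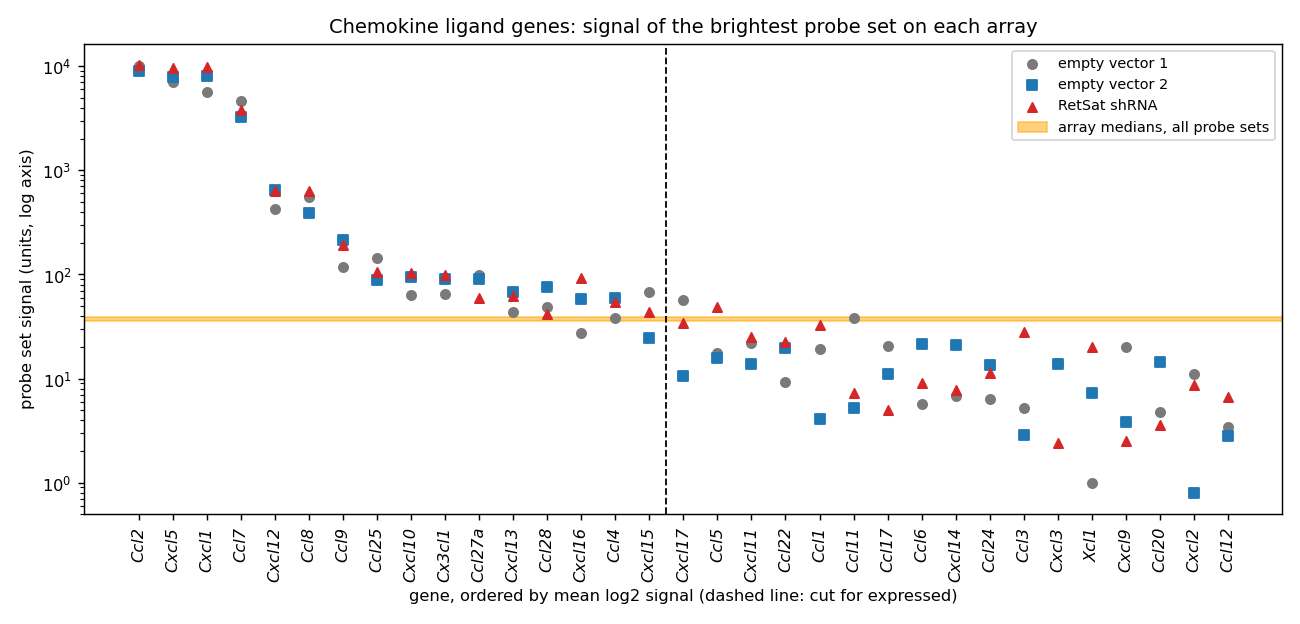
Signal of the brightest probe set of each of the 33 chemokine ligand genes on the 3 arrays (log axis), in order of mean log2 signal. The band spans the array medians of all probe sets (35.7 to 39.4), and the dashed line parts the 16 expressed members, of which 6 read above 393 on every array, from the 17 near the floor.

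The bright members of the CC group were Ccl2, Ccl7 and Ccl8. Ccl2, which recruits monocytes through CCR2, read 10070.7, 9012.9 and 10200.6. The shRNA array was level with empty vector 1 and slightly higher than empty vector 2. Ccl7, another CCR2 ligand, read 4652.7, 3230 and 3802.8, so the shRNA array lay between the controls. Ccl8 of the same subfamily read 554.3, 393.2 and 640.3 and was highest on the shRNA array, by 0.20 log2 over empty vector 1 and 0.69 over empty vector 2. The empty-vector arrays themselves differed by -0.48 log2 for Ccl8 (empty vector 2 minus empty vector 1), which is more than the 0.45 between RetSat shRNA and their mean. All 3 genes were lowest on empty vector 2 on the deposited scale.

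The bright neutrophil attractants were Cxcl1 and Cxcl5, both CXCR2 ligands. Cxcl5 read 7031.7, 7905.9 and 9549.3. Cxcl1 read 5687.1, 8128.2 and 9842.8. Both were lowest on empty vector 1 and highest on the shRNA array. On the log2 scale RetSat shRNA exceeded empty vector 1 by 0.44 and empty vector 2 by 0.27 for Cxcl5, and by 0.79 and 0.28 for Cxcl1. The controls differed by 0.17 for Cxcl5 and by 0.51 for Cxcl1. In limma, a linear model whose variance estimate borrows from all genes, the difference from the mean of the controls was 0.36 (SE 0.502) for Cxcl5, with an unadjusted p of 0.493, and 0.53 (SE 0.518) for Cxcl1, with an unadjusted p of 0.327. Neither passed after adjustment. The remaining bright member was Cxcl12, the stromal ligand of CXCR4 and the atypical receptor ACKR3. It read 426, 652.7 and 634.8, so that both empty vector 2 and RetSat shRNA exceeded empty vector 1, by 0.60 and 0.56 log2, while RetSat shRNA differed from empty vector 2 by -0.04.

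Among the 10 dim expressed members the shRNA array was highest for Cxcl10, Cx3cl1 and Cxcl16. Cxcl10, an interferon-inducible ligand of CXCR3 on T cells, read 63.3, 94.6 and 103.3. Cx3cl1, the membrane-tethered fractalkine, read 64.9, 89.9 and 99. Both lay closer to empty vector 2 (0.12 and 0.13 log2 higher on RetSat shRNA) than to empty vector 1 (0.63 and 0.54). Cxcl16, the other transmembrane chemokine and ligand of CXCR6, read 27.5, 58.5 and 92.4. It had the widest difference of the 16 from empty vector 1, at 1.44 log2, and stood 0.58 above empty vector 2, while the controls were 0.87 apart. Its unadjusted limma p, 0.0946, was the lowest among the expressed members.

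Lower on the shRNA array than on both controls were Ccl27a and Ccl28, which share the receptor CCR10. Ccl27a, a skin chemokine, read 98.7, 90.8 and 58.9, a difference of -0.66 and -0.55 log2 from empty vector 1 and empty vector 2. The controls differed by only -0.11 there. Both several-symbol probe sets that include Ccl27a did not follow this order, at 133.2, 103.5 and 121 for the brighter and 94.5, 116.7 and 110.9 for the other, and near-identical copies of the gene share their sequence. Ccl28, a mucosal chemokine, read 49.1, 75.9 and 42.1, and here the controls were 0.54 apart.

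For the remaining dim members RetSat shRNA lay between the controls. Ccl9, a CCR1 ligand of mice, read 117.6, 214 and 190.5. Ccl25, the thymus and gut ligand of CCR9, read 145.2, 88.2 and 105.8. The B cell attractant Cxcl13, which acts on CXCR5, read 43.7, 68.2 and 62.1. The same held for Ccl4, an inflammatory CC chemokine, and for Cxcl15, known from mouse lung, whose values are given above. Cxcl15 was the 1 expressed member at least 2-fold apart between the empty-vector arrays (-1.16 log2), compared with 12.7% of all tested genes.

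**Figure D2:**
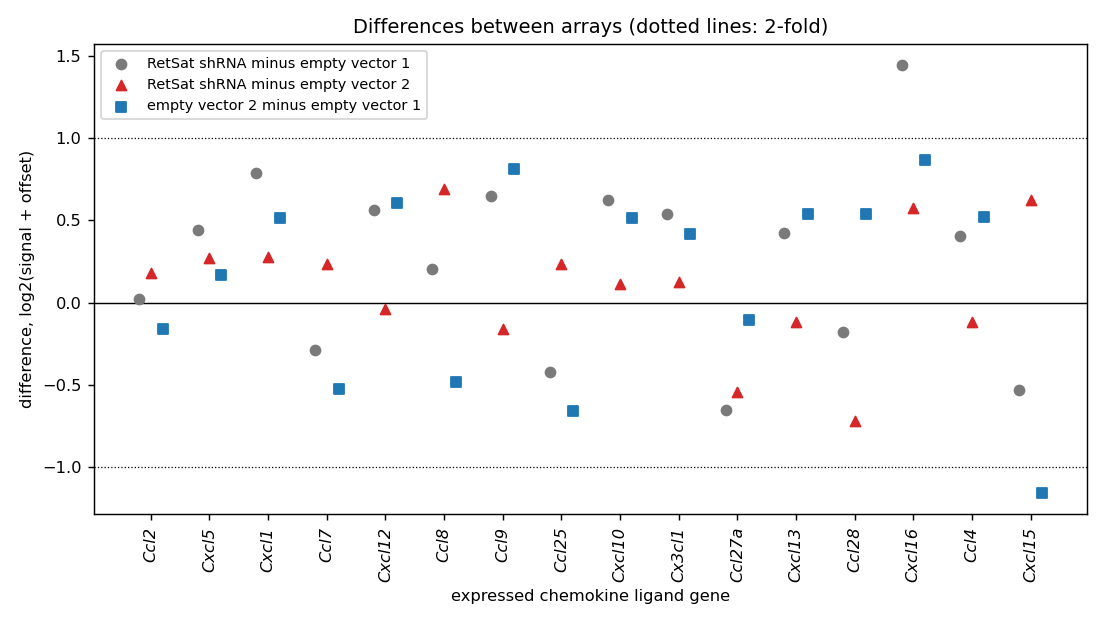
Log2 differences between arrays for the 16 expressed chemokine ligand genes (circles, RetSat shRNA minus empty vector 1; triangles, RetSat shRNA minus empty vector 2; squares, empty vector 2 minus empty vector 1). Only Cxcl16 (1.44 against empty vector 1) and Cxcl15 (-1.16 between the controls) lie past the dotted 2-fold lines.

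In the limma fit, 0 of the 16 expressed members passed (adjusted p 0.9999 for each), and 0 had an unadjusted p under 0.05. Of all 10843 genes, 0% passed at an adjusted p of 0.05, and 0.996% had an unadjusted p under 0.05. The SE of the members ran from 0.5004 to 0.588 log2, and 13 of the 16 differences from the control mean were smaller than their SE. By size, 0 of 16 exceeded both controls at least 2-fold on the shRNA array and 0 fell short of both by as much, compared with 0.0922% and 0.498% of all tested genes. Against empty vector 1 alone, 1 of 16 (Cxcl16) was at least 2-fold apart, compared with 13.6% of all tested genes, and against empty vector 2 alone 0 of 16, compared with 1.73%. At any size, 7 of the 16 (Ccl2, Ccl8, Cx3cl1, Cxcl1, Cxcl10, Cxcl16 and Cxcl5) were above both controls, compared with 34.4% of all tested genes, and 2 of 16 (Ccl27a and Ccl28) were below both, compared with 25.4%. With the arrays centred on their medians 8 members (Cxcl12 added) and 45.4% of all genes lay above both, and with quantile normalization 6 members (Ccl2 lost) and 36.3%. Of the 6 bright members 4 lay above both, compared with 37.0% of all genes at or above the 75th percentile. One of these, Ccl2, exceeded empty vector 1 by only 0.02 log2.

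The median log2 difference of the 16 expressed members was 0.41 from empty vector 1 and 0.15 from empty vector 2, beside 0.14 and 0.00 for all tested genes. The 2 comparisons share the RetSat shRNA array. Between the controls the members' median was 0.46 (empty vector 2 minus empty vector 1), beside 0.14 for all tested genes, and 10 of 16 were higher on empty vector 2, compared with 59.3% of all tested genes. For 12 of the 16 members the gap between the controls exceeded the difference of RetSat shRNA from their mean, the exceptions being Cxcl5, Cxcl1, Ccl27a and Cxcl16. That share, 75%, is close to the 71.6% of all tested genes. When empty vector 1 was set against the other arrays, 9 members lay below both others, compared with 52.6% of all tested genes, and 4 (Ccl25, Ccl27a, Ccl7 and Cxcl15) lay above both, compared with 34.2%. At least 2-fold from both others were 0 members on the higher and 0 on the lower side, compared with 7.92% and 1.86%.

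**Figure D3:**
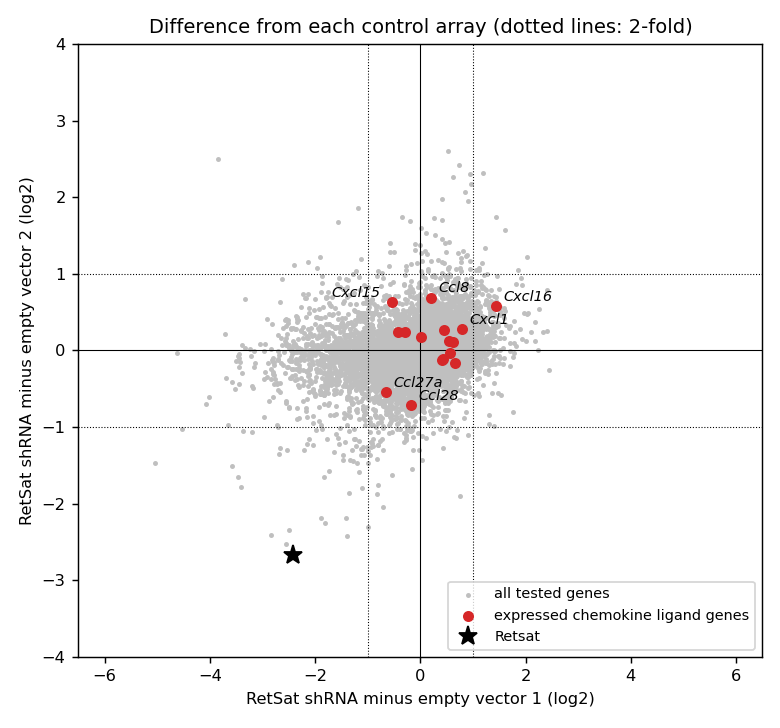
Difference of RetSat shRNA from empty vector 1 (horizontal) and from empty vector 2 (vertical), in log2, for all 10843 tested genes (grey), the 16 expressed chemokine ligand genes (red) and Retsat (star). Retsat lies at -2.42 and -2.67, and no chemokine ligand gene reaches a dotted 2-fold line on both axes.

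Agreement between probe sets could be read for 9 expressed genes with several, of which 4 had more than 1 above the level for expression. Cxcl1 was the most repeatable, since its other probe sets read 5103.9, 6544.1 and 7989.4, and 1511.4, 1914 and 2222.1, and all 3 gave the same order of arrays. The second bright probe set of Cxcl12 read 285.8, 408.8 and 403.6, again with empty vector 1 lowest and the other arrays level. The last of its probe sets lay near the floor at 4.8, 9.7 and 43.5. The second probe set of Ccl25 read 78.7, 46.6 and 70.7, with empty vector 2 lowest as on the first. Ccl9 disagreed with itself. Its second probe set read 64.6, 31.2 and 74, so that RetSat shRNA exceeded empty vector 2 by 1.02 log2 there and differed by -0.16 on the brighter one. The other probe sets of Cx3cl1, Cxcl13, Ccl28, Cxcl16 and Cxcl15 were below the level for expression, so the values of these genes rest on 1 probe set each. The next brightest of Cx3cl1 read 25.2, 39.6 and 9.7, lowest on RetSat shRNA, unlike the first. Those of Cxcl13 (4.1, 45.5 and 1.7), Cxcl16 (2.2, 5.8 and 3.7) and Cxcl15 (4.4, 2.8 and 15.4) also gave another order of arrays. That of Ccl28 (18.7, 24.7 and 7.1) kept its order, but the last probe set of Ccl28 (5.9, 3.8 and 5.1) did not.

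**Figure D4:**
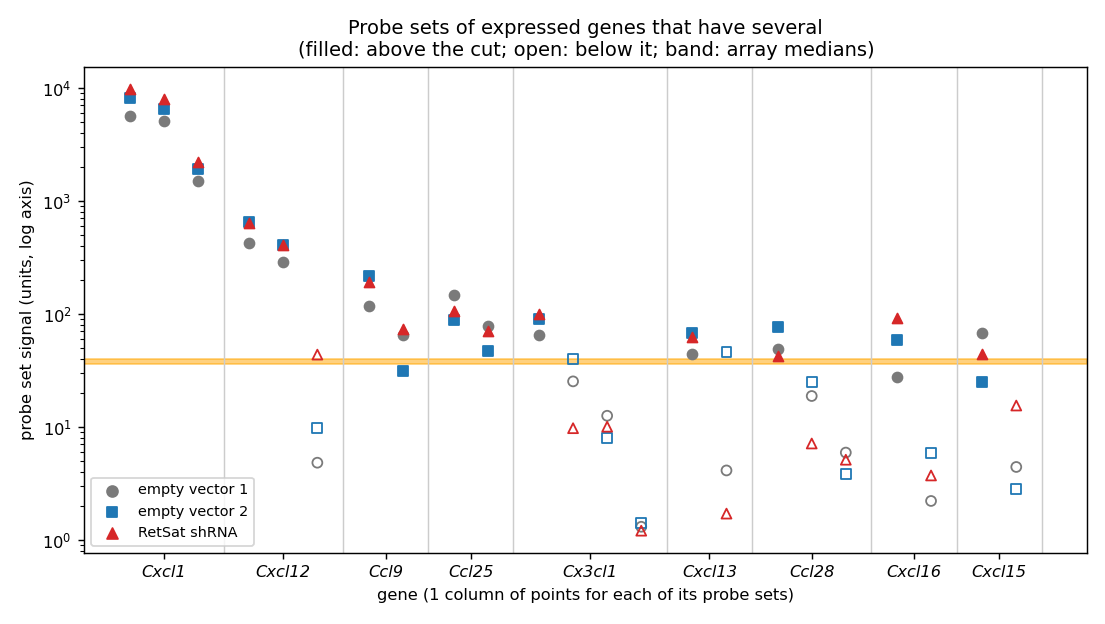
Signal of every probe set of the 9 expressed chemokine ligand genes that have several (log axis; filled symbols, above the level for expression; open symbols, below it). The 3 probe sets of Cxcl1 keep the same order of arrays, whereas those of Ccl9 place empty vector 2 highest (214) on one and lowest (31.2) on the other.

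Near the floor lay 17 members, with signals from 0.8 to 57. They include the neutrophil attractants Cxcl2 (11.1, 0.8 and 8.6) and Cxcl3 (14, 13.7 and 2.4), whose promoters share the 11-base sequence of Cxcl1 and whose values are given for that reason, the interferon-inducible Cxcl9 and Cxcl11, the eosinophil attractants Ccl11 and Ccl24, the T cell attractants Ccl17, Ccl20 and Ccl22, and also Ccl1, Ccl6, Ccl12, Cxcl14, Cxcl17 and Xcl1. The 2 remaining genes, Ccl5 and Ccl3, exceeded both controls at least 2-fold on the shRNA array. Ccl5, a T cell attractant induced in virus-infected cells, read 17.5, 15.8 and 49.2, and Ccl3, an inflammatory CC chemokine of macrophages, read 5.2, 2.9 and 28. The log2 difference was 1.10 from empty vector 1 and 1.19 from empty vector 2 for Ccl5 and 1.31 and 1.54 for Ccl3. Among the untested genes below the same limit, 5.12% met that rule on the higher side and 4.9% on the lower, where 0 of the 17 members did. With no filter on low signal, limma passed 0 of the 17 near-floor members, and 1 (Ccl3) had an unadjusted p under 0.05 (0.0310).

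The expressed members were scattered over the chemokine gene clusters. In the order of protein-coding genes of assembly GRCm38.p6, Ccl2, Ccl7, Ccl11, Ccl12, Ccl8 and Ccl1 are direct neighbours on chromosome 11, and 3 of these 6 were expressed. A second run on that chromosome, Ccl5, Ccl9, Ccl6, Ccl3 and Ccl4, held 2 expressed genes of 5. On chromosome 5, Cxcl3, Cxcl15, Cxcl1 and Cxcl2 are neighbours, and 2 of 4 were expressed. The runs count only genes of the naming rule. Pf4, a chemokine outside the rule, lies directly before Cxcl3, and Ppbp, another, lies directly beside the bright Cxcl5. Both reached the level for testing. The near-floor Cxcl2 lies directly beside the bright Cxcl1. Neighbours Ccl22, Cx3cl1 and Ccl17 on chromosome 8 held 1 expressed gene of 3.

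Chemokine receptors were mostly near the floor in these fibroblasts. Of 24 listed receptor genes 22 were measured and 5 reached the level for testing, of which 0 passed limma, 4 lay above both controls and 1 below (34.4% and 25.4% of all tested genes did so). The atypical receptor Ackr3, which binds and clears Cxcl12, was the bright one at 3550.7, 3769 and 4223.7. Ccr2, the receptor of Ccl2 and Ccl7, read 38.1, 57.3 and 90, and the scavenging receptor Ackr2 read 38, 41.4 and 24.6. The signalling receptor of Cxcl12, Cxcr4, read 2.9, 10.2 and 20, and that of Cxcl1 and Cxcl5, Cxcr2, read 6.6, 6.7 and 5.8, both near the floor and both named after their values were seen. Of the 4 chemotactic proteins outside the naming rule, platelet factor Pf4 read 55.2, 49.1 and 27, Cklf read 535.4, 753.5 and 967.5, and the cytokine Mif read 11455, 12150.4 and 13601.5. The fourth, Ppbp, lay between the controls for RetSat shRNA.

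Genes of the NF-kB pathway (subunits, inhibitors, kinases and adaptors) lay above both controls in 11 of 16 tested and below in 3. Of all tested genes 34.4% and 25.4% did so. The medians of the pathway genes were 0.45 log2 from empty vector 1 and 0.17 from empty vector 2. Those of all tested genes were 0.14 and 0.00. None passed limma (0 of 16). The inhibitor Nfkbie read 138.8, 138.9 and 219.2, its relative Nfkbiz read 1249.1, 1696 and 2288.3, and the subunit Rel read 27.5, 31.6 and 44.7. Other genes known as NF-kB targets, most of them secreted or on the cell surface, had medians of -0.04 and 0.16. Of 12 tested, 4 lay above both controls and 3 below, near the shares of all tested genes (34.4% and 25.4%). Examples were Sod2 (5626.4, 6609.9 and 8578.2), the serum amyloid Saa3 (8972.6, 11516.9 and 14309) and the interleukin Il1a (67.5, 85.7 and 54.8). Interferon-inducible genes other than Cxcl9, Cxcl10 and Cxcl11 had medians of -0.26 and 0.05, with 2 of 11 above and 3 below against the same shares. Ifit1 read 108.6, 47.2 and 25.4, Irf7 read 48.5, 63.6 and 39.6, and Bst2 read 71.1, 100.9 and 129.4.

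Genes that act on chemokine mRNA or protein had medians near 0 against empty vector 2. Factors of mRNA decay, most of which bind AU-rich elements, had medians of 0.21 log2 from empty vector 1 and 0.01 from empty vector 2. Of 9 tested, 3 lay above both controls and 0 below, beside 34.4% and 25.4% of all tested genes. Zfp36, a decay factor of inflammatory mRNAs, read 261.3, 337.4 and 384.1. Zc3h12a, an endonuclease with such targets, read 192.5, 434.3 and 438, and Tial1 read 762.5, 861.9 and 881.4. Proteases that cleave or shed chemokines had medians of 0.41 and 0.01, with 3 of 5 above and 1 below against those shares, among them Mmp9 (36, 59.5 and 87.6), Adam10 (1284.8, 1269.2 and 1393.2) and Adam17 (815.5, 477.4 and 413.7), the last 2 being sheddases of Cx3cl1 and Cxcl16. No gene of these 7 lists, receptors and other chemotactic proteins included, passed limma (0 in each), and none had an unadjusted p under 0.05 (0 in each).

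Leukocytes also make chemokines, so their markers were read beside these values. Of 12 leukocyte and macrophage markers 11 were measured, with summed signals of 888, 816.5 and 946.3, and 3 reached the level for testing. Most of that sum was Cd14, at 569.4, 479.9 and 614.7, which was highest on RetSat shRNA. The macrophage marker Cd68 was lowest there, at 142, 132.8 and 119.7, and Csf1r lay between the controls at 83.3, 105.9 and 86.6. The pan-leukocyte Ptprc read 4.4, 5.1 and 15.2, the integrin Itgam 0.9, 1.2 and 1.3 and the T cell Cd3e 8.4, 9.8 and 3.4, all near the floor, and so was the Fc receptor chain Fcer1g at 2.5, 9 and 31.2. None of the 11 was listed at 0, and those named here below the level for testing were chosen after their values were seen. Endothelial markers (0 of 6 tested) summed to 118.5, 76.1 and 122.3, and epithelial markers (4 of 6 tested) to 330.8, 289.9 and 305.2. The part of other cells in the chemokine values was not tested.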

How the data were processed

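The authors deposited linear probe set intensities from 3 single-colour arrays of biotin-labelled total RNA, per the labels. The sources used here do not give the software that summarised the probes. The authors had scaled the deposited intensities to a common level, since the 2% trimmed mean was 250.0 on each array, and no further normalization was applied. The number of arrays limits the precision, and no detection calls were used.

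Groups came from the sample titles. Gene symbols came from the platform annotation and matched the GRCm38.p6 annotation by gene ID (0 changed). Each gene took the probe set of highest mean log2(signal + 10.2), the offset being the 25th percentile of all values, and was tested when that mean reached the median of all probe sets. RetSat shRNA was compared with empty vector in limma 3.58.1 (R 4.3.3; lmFit, eBayes, two-sided, Benjamini-Hochberg over 10843 genes, threshold 0.05). The fit has 1 residual degree of freedom, from the empty-vector arrays, so p-values measure only their spread, which may be technical, and the lone shRNA array is taken to vary as they do. The fit was tested on simulated data. A rule of size (2-fold from both controls) was used beside it.

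The chemokine members and all gene lists were chosen with earlier results of these data known. Named are all expressed members, the members beside the limit, near-floor members past the rule of size, Retsat, and up to 3 tested genes of each list with the largest smaller difference from the controls on the same side of both. Genes outside this rule are marked in the text. Motifs were searched on both strands of the RefSeq promoter windows. Offsets, filters, scalings, the probe set rule, the variance prior and each control array were varied.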

Additional observations from a re-analysis of the deposited data

How the results depend on the processing

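No chemokine ligand gene passed limma under any offset, filter, scaling, probe set rule or variance prior tried. Over all genes limma passed 0, except 1 with arrays centred on their medians and 7 with a robust variance prior. The count of all genes at least 2-fold from both controls was 64 and became 110 with an offset of 1, 15 with an offset of 32, 800 with no filter, 1 with a 75th percentile filter and 345 at 1.5-fold. Without empty vector 1 it was 188, and without empty vector 2 it was 1478. For chemokine ligand genes that count was 0, except 2 with no filter, and it was 0 without empty vector 1 and 1 (Cxcl16) without empty vector 2. Members above both controls numbered 7 of 16, beside 34.4% of all tested genes. They numbered 14 of 33 with no filter (33.6% of all genes) and 4 of 6 with the 75th percentile filter (37.0%). With 1 control left, 10 of 16 lay above it without empty vector 1 and 11 of 16 without empty vector 2. The share of all genes was not computed for these 2 counts. The median log2 difference of the members was 0.20, beside 0.067 for all tested genes. It was 0.15 without empty vector 1 (all genes 0) and 0.41 without empty vector 2 (all genes 0.14). It was 0.31 with the 75th percentile filter (all genes 0.095) and 0.36 over the mean of all probe sets of a gene (all genes 0.026). Under that last rule 11 members were tested, without Cxcl16, Cx3cl1, Ccl28, Cxcl13 and Cxcl15. Of the 11, 7 lay above both controls, Ccl9 and Cxcl12 among them, and 1 (Ccl27a) below, beside 32.3% and 28.6% of all genes. Cxcl12 went from 0.26 to 0.71. Expressed members fell from 16 to 6 with the limit at the 75th percentile, because fewer genes reach it.

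Of 129 recomputed differences of single members, 118 kept their direction and 11 reversed. Part of the 118 could not have reversed, so that count overstates how stable the directions were. A changed filter left the value of each member as it was. So did averaging the probe sets of a gene that has only a single one. Members above or below both controls keep their direction when either control is left out. Ccl7 was 0.062 with arrays centred, Ccl2 was -0.053 and Ccl25 was 0.068 with quantile normalization, and Ccl25 was 0.047 over all its probe sets. Without empty vector 1 and without empty vector 2, respectively, Ccl25 was 0.24 and -0.42, Ccl4 -0.12 and 0.40, Ccl7 0.23 and -0.29, Ccl9 -0.16 and 0.65, Cxcl12 -0.039 and 0.56, Cxcl13 -0.12 and 0.42, and Cxcl15 0.63 and -0.53. These 7 members lay between the controls, so leaving out one control or the other had to reverse their direction once. The cause of the gap between the controls and of the reversals under other settings was not tested. Limma could not be run without a control array, which leaves no residual degree of freedom. No paired analysis was possible because the groups share only the number 2. Signals near the array medians limit what can be read of the near-floor members.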
